A study of Danio rerio with 6 samples.

Results

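The 9 genes described here, sox2, sox3, sox4a, sox4b, sox6, sox8b, sox9b, sox11a and sox11b, belong to the SOX family of transcription factors. They were chosen by name, with earlier results of these data known, from 25109 genes in the count matrices. They take 10 rows there, because sox4a is listed under 2 gene identifiers (ENSDARG00000004588 with 32438 unique molecular identifiers, UMIs, in the barcodes kept, and ENSDARG00000096389 with 22). A further 17 sox rows serve below as a list to compare with. The question was at what level each gene stood in retinal stem cells, progenitors, newborn neurons, cholinergic amacrine cells and glia, and which of these genes were detected together in single cells.

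The cells came from dissected eyes of zebrafish embryos at 48 h post-fertilisation (hpf), the F1 generation of the NRE-eGFP/HS5-mCherry reporter line, kept in PTU to block pigment. Both reporters sit on 1 construct, where the human PAX6 enhancers HS5 and NRE drive mCherry and eGFP from a minimal gata2 promoter. Sorting gave 3 mCherry-enriched libraries, which held cells positive for mCherry alone or for both colours, and 3 eGFP-enriched libraries, which held cells positive for eGFP alone. Every library carries both transgenes, each pooled the eyes of many embryos, and each was sorted for at least 1 of the reporters, so no library shows the whole retina. By the study's methods each round of sorting gave 1 library of each sort, and the round that opened the series took double-positive cells for the mCherry arm. The labels do not tie replicate numbers to rounds.

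SOX proteins bind DNA through an HMG box and are grouped by sequence. SoxB1 proteins (sox2, sox3) are known for keeping neural progenitors undifferentiated, and in the mouse retina Sox2 also marks cholinergic amacrine cells and Müller glia. SoxC proteins (sox4a, sox4b, sox11a, sox11b) act during neuronal differentiation and are needed for retinal ganglion cells (RGCs) in the mouse, SoxD proteins (sox6) lack an activation domain of their own, and SoxE proteins (sox8b, sox9b) are known from glia, neural crest and cartilage. The a and b genes are pairs left by the genome duplication of teleost fish.

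The libraries held 15546384 to 23408456 UMIs (mCherry-enriched) and 14307132 to 86803928 UMIs (eGFP-enriched) over all barcodes. Barcodes with at least 1000 genes and at most 10% mitochondrial UMIs numbered 376, 218 and 597 in mCherry-enriched replicates 1, 2 and 3, against 2027, 85 and 2303 in the eGFP-enriched replicates, 5606 in all. Any pair of libraries shared at most 1 of these barcodes. Each was assigned by marker genes, none of them a sox gene, to 1 of 10 retinal classes (4349 barcodes) or to another tissue (405). No marker gate was passed by 485, and 367 that fitted several gates equally well, with a median of 53446 UMIs, were left out. Of the 4349 retinal barcodes, 1793 had passed more than 1 gate.

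The classes held 292 stem cells, 910 progenitors, 118 newborn RGCs, 114 cholinergic amacrine cells and 191 glia, beside 625 other amacrine cells, 559 RGCs, 1062 bipolar, 120 horizontal and 358 photoreceptor cells. A level below is a gene's UMI count in the sum of a class within 1 library, scaled to the same total in every sum (CPM). It is given where a library held 10 or more cells of that class, and n is the number of such libraries. The labels do not say that replicates were separate pools of embryos, so a p measures the spread between these libraries, which may be technical. In classes of 3 libraries the edgeR p rests on an estimate of spread shared over genes. A very small p there does not measure how far the libraries differ for that gene. Free RNA was read from barcodes of at most 100 UMIs. There sox3, sox4a, sox11a and sox11b averaged 182, 288, 171 and 143 CPM, sox2 averaged 58.0, and sox4b, sox6 and sox9b averaged 21.1, 22.5 and 20.2. These values are the make-up of the free RNA, and its amount in a cell was not measured. Some class levels lay far below them, with sox2 at 3.75 and sox3 at 5.84 CPM in cells gated as mesenchyme and cartilage. A class level at or below these values thus shows neither that a gene was absent nor that its UMIs were free RNA.

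**Figure D1:**
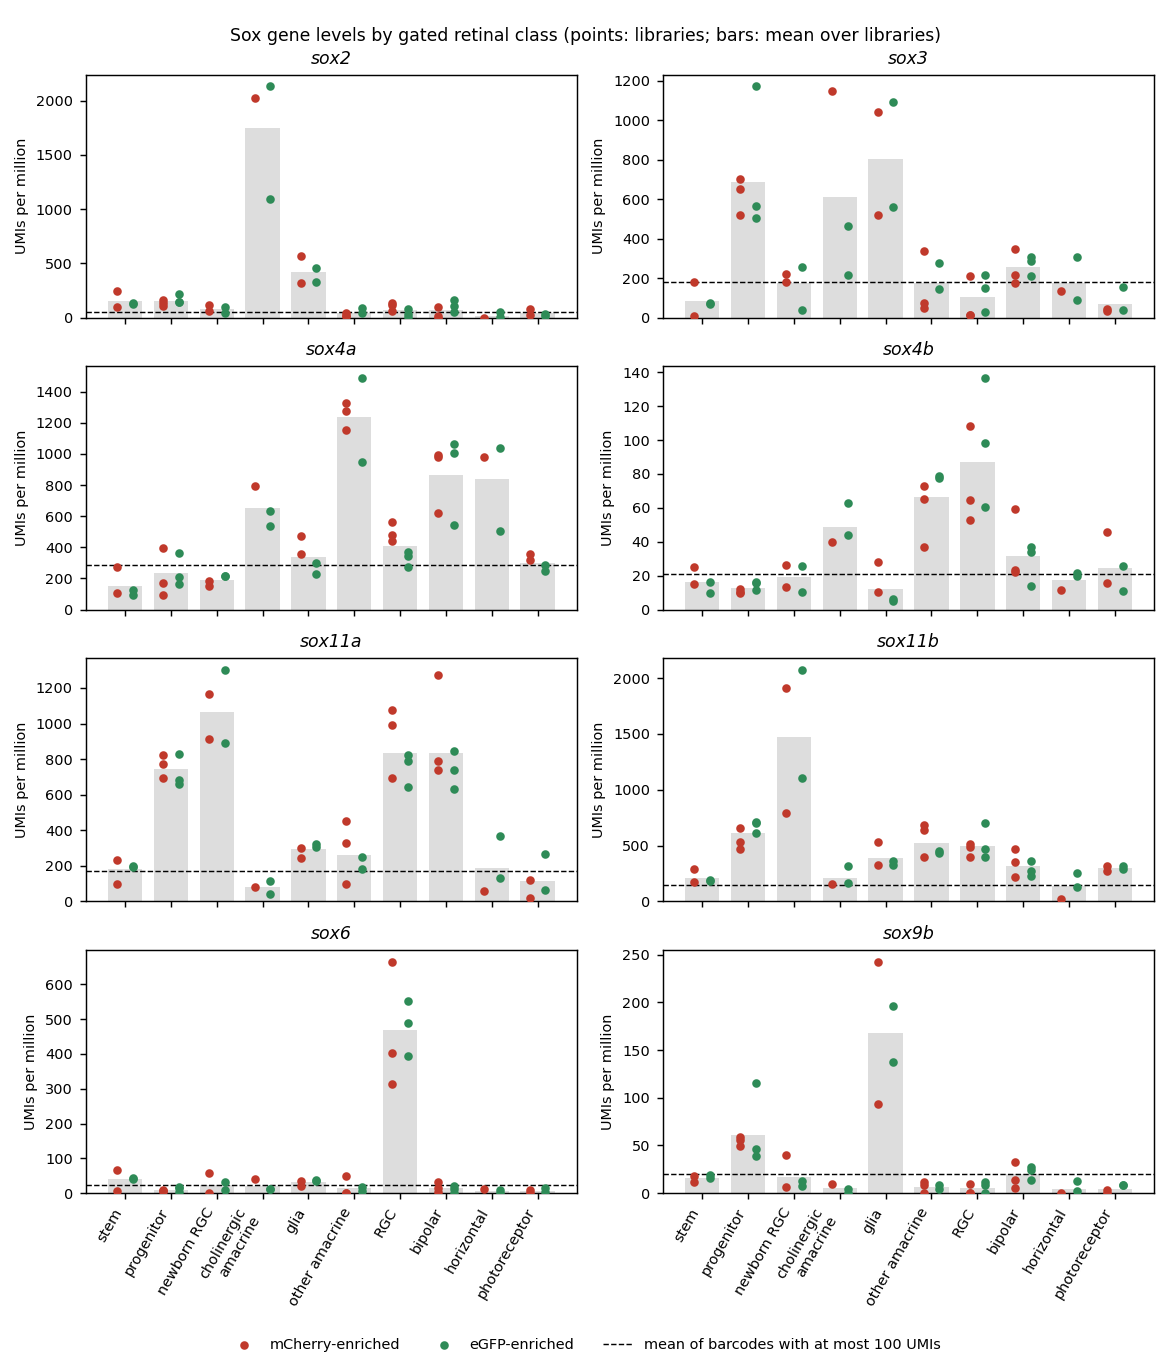
Level of each sox gene (CPM, linear axes of different range) in each retinal class, 1 point per library with 10 or more of its cells, mCherry-enriched in red and eGFP-enriched in green, the bar being the mean over libraries and the dashed line the mean of barcodes with at most 100 UMIs. The points of sox2 in cholinergic amacrine cells (1095 to 2133), of sox6 in RGCs (314 to 666) and of sox11b in newborn RGCs (794 to 2075) lie above those of the other classes.

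sox2, the SoxB1 gene of neural stem and progenitor cells, stood highest in cholinergic amacrine cells. Its level there was 2021 CPM in mCherry-enriched replicate 3, against 1095 and 2133 in eGFP-enriched replicates 1 and 3. In glia it was 317 and 567 in mCherry-enriched replicates 1 and 3, against 328 and 458 in eGFP-enriched replicates 1 and 3. The ranges of these classes did not overlap, and both lay above progenitors, whose 6 libraries ran from 112 over a median of 147 to 215. Stem cells had 100 and 249 in mCherry-enriched replicates 1 and 3, against 128 and 137 in eGFP-enriched replicates 1 and 3, which overlapped the progenitors. All other classes averaged between 19.8 and 79.2, near the 58.0 of the free RNA. Cholinergic cells exceeded glia in 3 of 3 shared libraries, where an exact sign-flip permutation test cannot give a p under 0.25, and glia exceeded progenitors in 4 of 4, where it cannot give one under 0.125. Stem cells and progenitors could not be ranked (exact p = 1). The paper used sox2 to tell its cholinergic amacrine cluster from other amacrine cells. The cholinergic markers used here were chosen with earlier results of these data known. High sox2 in this class is therefore a description and not an independent test.

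Against all other gated retinal cells of the same libraries, sox2 was 14.5-fold higher in cholinergic cells, with a log2 difference of 3.86 ± 0.13 (SE, n = 3, edgeR adjusted p = 9.2e-87). It was 2.85-fold higher in glia, at 1.51 ± 0.14 (n = 4, edgeR adjusted p = 1.8e-05). In stem cells and progenitors the differences were 0.15 ± 0.18 (n = 4) and 0.16 ± 0.16 (n = 6), and neither passed the test. With the cells that passed several gates left out, the progenitor value was -0.45. sox2 was lower in RGCs, at -1.47 ± 0.48 (n = 6, edgeR adjusted p = 0.031), a call lost without replicate 2 of either sort (-1.46 without mCherry-enriched, -1.40 without eGFP-enriched). It was also lower in bipolar cells, at -1.42 ± 0.41 (n = 6, edgeR adjusted p = 0.019), lost without replicate 3 of either sort (-1.16 without mCherry-enriched, -1.32 without eGFP-enriched).

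Set directly against the other amacrine cells, which release GABA or glycine, cholinergic cells had 30.2-fold more sox2 (log2 difference 4.92 ± 0.29, edgeR adjusted p = 8.9e-10, and 5.75 without eGFP-enriched replicate 1). The difference can be followed over the number of cholinergic markers found in an amacrine cell. With all libraries summed, sox2 was at 35.2, 47.5, 49.0 and 91.7 CPM in cells with 0, 1, 2 and 3 of the 10 markers (114, 195, 193 and 123 cells), and at 424 in the 27 cells with 4. It was at 787 in the 13 cells with 5, and at 2726 in the 74 cells with 6 or more. The middle steps are thin, since 1 library alone held 10 cells with 4 markers, at 183 CPM, and none held 10 with 5. In those 74 cells each library gave a high level, with 2992, 3072 and 2763 in mCherry-enriched replicates 1, 2 and 3, against 1939, 5041 and 2894 in eGFP-enriched replicates 1, 2 and 3, of which mCherry-enriched replicate 1 and eGFP-enriched replicate 2 gave 1 cell each. A marker count of 4 admitted cells to the class, so its 27 cells at that minimum had less sox2 than the rest.

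In thinned cells the share with a sox2 UMI gave the same order. After each cell was thinned to an equal number of UMIs, sox2 was found in 71.9% of cholinergic cells (exact 95% interval 62.7 to 79.9%) and 46.6% of glia (39.4 to 53.9%), against 3.63% of photoreceptor cells (1.95 to 6.13%), a class expected to lack it. The unthinned shares were 80.7%, 81.7% and 10.9%, at median depths of 6565.5, 6342 and 7038.5 UMIs. These intervals, like the other exact intervals here, cover counting error only. Stem cells and progenitors had thinned shares of 17.5% and 14.6%, above the photoreceptor share.

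**Figure D2:**
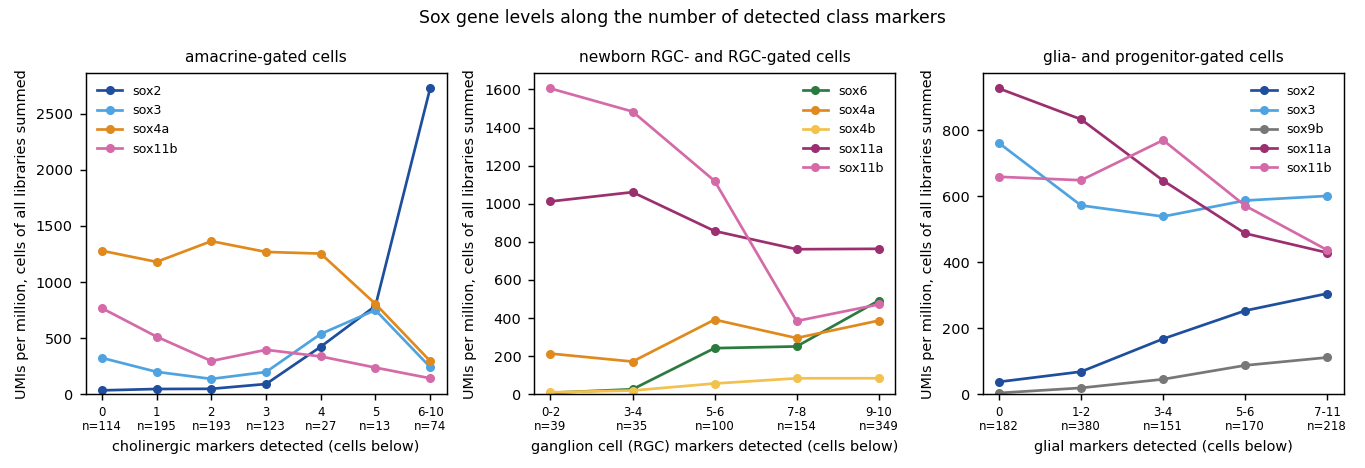
Level of the sox genes (CPM, all libraries summed) against the number of markers detected per cell, for cholinergic markers among amacrine cells, RGC markers among newborn and mature RGCs, and glial markers among progenitors and glia. sox2 was at 35.2 with 0 and at 2726 with 6 or more cholinergic markers, sox6 was at 8.01 with 0 to 2 and at 492 with 9 or 10 RGC markers, and sox9b was at 4.02 with 0 and at 112 with 7 or more glial markers.

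sox3, the other SoxB1 gene, is known from the early neural plate and from progenitors. Its level in progenitors ran from 504 over a median of 611 to 1174 in the 6 libraries, the highest being eGFP-enriched replicate 2, which held 10 of these cells. In glia it was 521 and 1042 CPM in mCherry-enriched replicates 1 and 3, against 563 and 1096 in eGFP-enriched replicates 1 and 3. Glia and progenitors overlapped, and the direct difference between them was 0.15 on the log2 scale (95% interval -0.16 to 0.46, normal, too narrow for few libraries). Cholinergic cells gave 1149 in mCherry-enriched replicate 3, against 466 and 218 in eGFP-enriched replicates 1 and 3, a spread that reached from the free RNA to the progenitor level. Stem cells, at 182 and 8.41 in mCherry-enriched replicates 1 and 3, against 68.8 and 76.4 in eGFP-enriched replicates 1 and 3, did not exceed the free RNA average of 182.

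Against other retinal cells, sox3 was 3.95-fold higher in progenitors (log2 difference 1.98 ± 0.19, n = 6, edgeR adjusted p = 8.0e-06). It was 2.47-fold higher in glia (1.30 ± 0.26, n = 4, edgeR adjusted p = 0.0044), a call lost without mCherry-enriched replicate 3 (1.2, adjusted p 0.057). In stem cells sox3 was lower by a factor of 4.23 (-2.08 ± 0.41, n = 4, edgeR adjusted p = 0.0031), and lower than in progenitors by a factor of 8.17 (-3.03 ± 0.44, edgeR adjusted p = 0.0011). For sox2 the difference between stem cells and progenitors was -0.05 (95% interval -0.48 to 0.37, again normal and too narrow). In cholinergic cells sox3 was called higher at 0.69 ± 0.15 (n = 3, edgeR adjusted p = 0.00011), but the value was 0.10 without mCherry-enriched replicate 3 (adjusted p 0.88), and the DESeq2 adjusted p was 0.26. Against other amacrine cells it was 1.47 ± 0.35 (edgeR adjusted p = 0.0084), and 0.68 without mCherry-enriched replicate 3. Along the cholinergic markers sox3 showed no order that held in single libraries, the pooled 538 CPM at 4 markers being 274 in the only library with 10 such cells, against 211 to 396 in the libraries with 6 or more markers.

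sox11b and sox11a, SoxC factors of differentiating neurons, stood highest in newborn RGCs. sox11b was at 794 and 1907.4 CPM in mCherry-enriched replicates 1 and 3, against 1105 and 2075 in eGFP-enriched replicates 1 and 3. sox11a was at 913 and 1164.5 in mCherry-enriched replicates 1 and 3, against 890 and 1303 in eGFP-enriched replicates 1 and 3. For sox11b no library overlapped the progenitors (469 to 711) or the RGCs (399 to 705). For sox11a the newborn RGCs overlapped the bipolar cells (631 to 1272) and the RGCs (643 to 1075).

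Against other retinal cells, sox11b was 3.6-fold higher in newborn RGCs (log2 difference 1.85 ± 0.21, n = 4, edgeR adjusted p = 0.00028) and sox11a was 2.19-fold higher (1.13 ± 0.15, n = 4, edgeR adjusted p = 0.00081). Both were also higher there than in progenitors, sox11b by 1.15 ± 0.17 (edgeR adjusted p = 0.0096) and sox11a by 0.60 ± 0.12 (edgeR adjusted p = 0.017). The sox11a call was lost without eGFP-enriched replicate 1, mCherry-enriched replicate 3 or eGFP-enriched replicate 3 (0.59, 0.57 and 0.49, adjusted p 0.065 to 0.081). Both were higher than in mature RGCs, sox11b by 1.82 ± 0.27 (edgeR adjusted p = 0.0013) and sox11a by 0.62 ± 0.12 (edgeR adjusted p = 0.0053). Over the number of RGC markers in a cell, sox11b was at 1605 CPM in the 39 cells with 0 to 2 markers, at 1484 with 3 or 4, at 1120 with 5 or 6, at 385 with 7 or 8 and at 472 with 9 or 10. sox11a stood between 1061 and 761 over the same steps. The RGC gate asks for 5 of these 10 markers, so every cell with fewer was gated as a newborn RGC. Some newborn RGCs had 5 or more. The difference across 5 markers thus in part repeats the comparison of newborn RGCs with RGCs.

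Both genes were also higher in progenitors than in other retinal cells, sox11b by 0.88 ± 0.13 (n = 6, edgeR adjusted p = 0.00021) and sox11a by 0.77 ± 0.12 (n = 6, edgeR adjusted p = 0.00025). sox11a alone passed the test in RGCs (0.65 ± 0.14, n = 6, edgeR adjusted p = 0.0033), where it was 0.27 and not called with cells of several gates left out, and in bipolar cells (0.69 ± 0.13, n = 6, edgeR adjusted p = 0.0025). Bipolar cells had less sox11b (-0.58 ± 0.13, n = 6, edgeR adjusted p = 0.0049). The lowest mean level of sox11a was in cholinergic amacrine cells, at 79.3 in mCherry-enriched replicate 3, against 113 and 44.1 in eGFP-enriched replicates 1 and 3, under the free RNA average of 171. That difference was -2.91 ± 0.19 (n = 3, edgeR adjusted p = 7.4e-36), and against other amacrine cells it was -1.63 ± 0.21 (edgeR adjusted p = 1.2e-05). Photoreceptor cells, with 12.0% of thinned cells holding a sox11a UMI, had 34.4% with sox11b, at a level of 297 ± 21 CPM (SD, n = 4).

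sox4a, another SoxC factor, was highest in the amacrine cells other than the cholinergic ones. Its level there was 1275, 1156 and 1328 CPM in mCherry-enriched replicates 1, 2 and 3, against 951 and 1488 in eGFP-enriched replicates 1 and 3. Bipolar cells ranged from 542 to 1065, and the other amacrine cells exceeded them in 5 of 5 shared libraries (exact sign-flip permutation p = 0.0625, the smallest possible). Stem cells, newborn RGCs and progenitors averaged 149, 193 and 234, under the free RNA average of 288. Against other retinal cells sox4a was 2.88-fold higher in other amacrine cells (log2 difference 1.52 ± 0.12, n = 5, edgeR adjusted p = 1.1e-05), 1.89-fold in bipolar cells (0.92 ± 0.12, n = 6, edgeR adjusted p = 0.00024) and 1.85-fold in horizontal cells (0.89 ± 0.14, n = 3, edgeR adjusted p = 5.6e-07).

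In cholinergic amacrine cells sox4a was at 793 in mCherry-enriched replicate 3, against 537 and 632 in eGFP-enriched replicates 1 and 3, lower than in other amacrine cells (log2 difference -0.92 ± 0.11, edgeR adjusted p = 6.2e-06). Along the cholinergic markers it was at 1254 CPM with 4 markers, 806 with 5 and 297 with 6 or more. The difference of cholinergic cells from all other retinal cells was 0.33 ± 0.13 (n = 3, edgeR adjusted p = 0.049), and this call did not hold. Leaving out any 1 of its 3 libraries ended it, at 0.34 without eGFP-enriched replicate 1, 0.19 without mCherry-enriched replicate 3 and 0.37 without eGFP-enriched replicate 3. It turned to -0.41 in thinned cells and to -0.20 with 1 marker more in every gate.

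sox4b, the paralogue of sox4a, was a low gene, with 81.2 CPM as the median of the RGC libraries (53.1 to 137). Other amacrine cells averaged 66.3 ± 17.2 (SD, n = 5), and no other class averaged more than 48.9. It was higher in RGCs by 1.66 ± 0.20 (n = 6, edgeR adjusted p = 0.00012) and in other amacrine cells by 1.14 ± 0.15 (n = 5, edgeR adjusted p = 0.00018). In progenitors it was lower (-1.43 ± 0.18, n = 6, edgeR adjusted p = 5.2e-05), at a mean of 12.7, under the free RNA average of 21.1. Newborn RGCs had less sox4b than RGCs (-2.07 ± 0.31, edgeR adjusted p = 0.0013).

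Within a pair of paralogues the share of each gene needs no scaling between classes. sox11b made up 32.5%, 21.9% and 26.8% of the sox11a and sox11b UMIs of bipolar cells in mCherry-enriched replicates 1, 2 and 3, and 36.5%, 23.2% and 24.3% in eGFP-enriched replicates 1, 2 and 3. The mean was 27.5 ± 5.8% (SD, n = 6) in bipolar cells, against 48.2% in the other retinal cells of the same libraries. The difference was -20.7 ± 6.4 points (SD), lower in 6 of 6 libraries (exact sign-flip permutation p = 0.031). In other amacrine cells sox11b took 66.9 ± 12.9%, against 42.5% in the other cells, higher in 5 of 5 libraries (exact p = 0.0625, the smallest possible). The difference there was 24.4 points, and 17.7 without mCherry-enriched replicate 2.

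Cholinergic cells (73.1%, against 46.1%), photoreceptor cells (75.2%, against 43.4%), newborn RGCs (56.4%, against 44.2%) and glia (56.2%, against 45.1%) also had the larger sox11b share in each of their 3 or 4 libraries. An exact test over 3 or 4 libraries cannot pass 0.05. The glial difference of 11.1 points was 6.62 without mCherry-enriched replicate 3. Of the other pair, sox4b made up 16.2 ± 6.5% in RGCs, against 4.87% in other cells, higher in 5 of 5 libraries (exact p = 0.0625), and 3.68 ± 1.82% in bipolar cells, against 7.32%, lower in 6 of 6 (exact p = 0.031). These were 20 comparisons of a class and a pair, and 6 libraries allow no p under 0.031, so none would pass an adjustment over them.

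**Figure D3:**
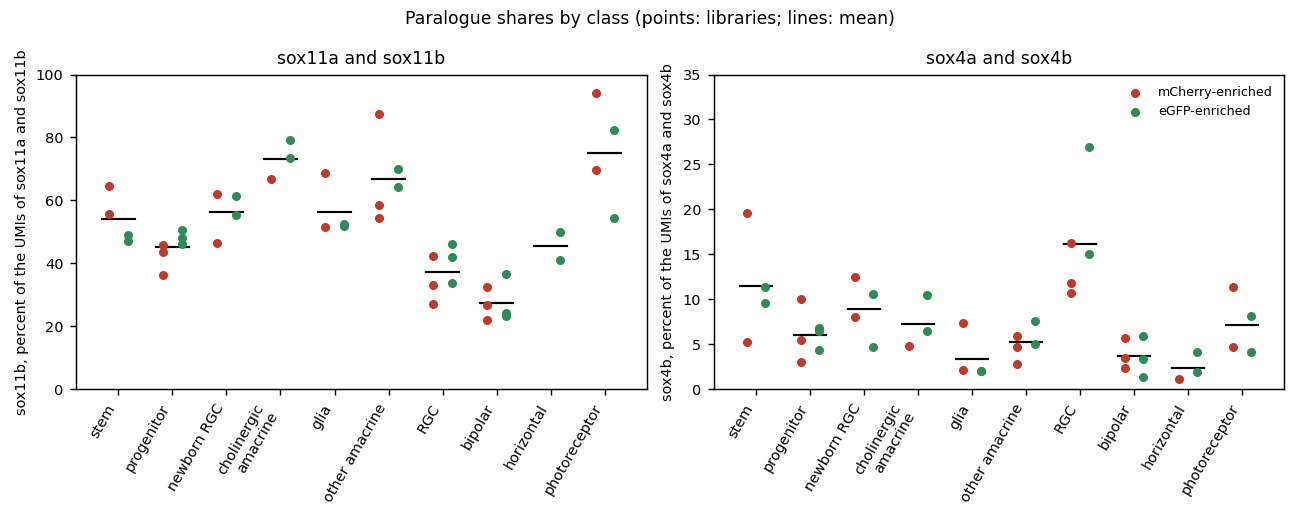
Share of sox11b among sox11a and sox11b UMIs, and of sox4b among sox4a and sox4b UMIs (percent), per library and retinal class, 1 point per library with at least 20 UMIs of the pair, mCherry-enriched in red and eGFP-enriched in green, with a line at the mean of each class. Bipolar cells lie lowest in the sox11 pair (mean 27.5%), and RGCs lie highest in the sox4 pair (mean 16.2%).

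sox6, a SoxD factor known from cartilage, red blood cells and neurons, was highest in RGCs among the retinal classes. Its level in RGCs was 403, 314 and 666 CPM in mCherry-enriched replicates 1, 2 and 3, against 394, 490 and 553 in eGFP-enriched replicates 1, 2 and 3. The next retinal class was stem cells at 39.8 ± 24.7 (SD, n = 4). The remaining retinal classes averaged between 7.35 and 31.8, around the 22.5 of the free RNA. No library of another retinal class reached the RGC range. Of the other tissues, mesenchyme and cartilage cells exceeded it in mCherry-enriched replicate 2, at 1090 CPM (10 cells, 129 UMIs). For RGCs the difference from other retinal cells was 21.2-fold (log2 4.41 ± 0.29, n = 6, edgeR adjusted p = 3.7e-06). Newborn RGCs did not share it, with 24.9 ± 25.4 CPM (SD, n = 4), lower than RGCs by a factor of 16.2 (-4.02 ± 0.45, edgeR adjusted p = 0.00049).

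Over the RGC markers, sox6 was at 8.01, 26.4, 242, 251 and 492 CPM in cells with 0 to 2, 3 or 4, 5 or 6, 7 or 8, and 9 or 10 markers (39, 35, 100, 154 and 349 cells). The libraries spread widely at 5 or 6 markers (45.3 to 313) and at 7 or 8 (13.9 to 307). At 5 or 6 markers sox11b stood at 1120 CPM. All cells under 5 markers were gated as newborn RGCs, so the rise of sox6 at 5 in part repeats the comparison of newborn RGCs with RGCs. Newborn RGCs numbered 118, more than the 39 and 35 cells of those steps, so some also lay at 5 markers or more. There they were mixed with RGCs. A sox6 UMI was found in 24.3% of thinned RGCs (exact 95% interval 20.8 to 28.1%, 42.0% unthinned). The share was 1.40% in thinned photoreceptor cells and at most 6.28% in any other retinal class. In progenitors sox6 was lower than in other retinal cells (-3.35 ± 0.32, n = 6, edgeR adjusted p = 7.7e-06, and -4.19 without eGFP-enriched replicate 1), at a mean of 9.21, under the free RNA. The stem cell call (-0.82 ± 0.28, n = 4, edgeR adjusted p = 0.038) was lost without eGFP-enriched replicate 1 or 3 (-1.02 and -0.86). Stem cells and glia, though called lower, had the next highest means after RGCs (39.8 and 31.8 CPM). RGCs were among the cells compared, and their part in these lower calls was not tested.

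sox9b, a SoxE factor of glia and cartilage, was highest in glia. Its level there was 93.4 and 243 CPM in mCherry-enriched replicates 1 and 3, against 138 and 196 in eGFP-enriched replicates 1 and 3. In progenitors it was 39.0 at the lowest, 52.7 at the median and 116 at the highest of 6 libraries, the highest being eGFP-enriched replicate 2 with 7 UMIs. The classes overlapped by that library, though glia lay above progenitors in each of 4 shared libraries (exact p = 0.125, the smallest possible). No other class averaged above the 20.2 of the free RNA. sox9b was 6.74-fold higher in glia (log2 2.75 ± 0.28, n = 4, edgeR adjusted p = 3.7e-05) and 2.84-fold higher in progenitors (1.51 ± 0.23, n = 6, edgeR adjusted p = 0.00018) than in other retinal cells, and 2.96-fold higher in glia than in progenitors (1.56 ± 0.19, edgeR adjusted p = 6.4e-05).

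Among progenitors and glia pooled, sox9b followed the number of glial markers, at 4.02, 19.4, 45.6, 87.6 and 112 CPM with 0, 1 or 2, 3 or 4, 5 or 6, and 7 to 11 markers (182, 380, 151, 170 and 218 cells). sox2 moved with it, at 37.7, 68.5, 168, 253 and 305. sox3 stayed between 538 and 761, and sox11a was at 926 with 0 markers and 429 with 7 or more. Median depth per cell over these steps was between 5984.5 and 10708 UMIs and was highest at 5 or 6 markers. The glial gate asks for 5 of these 11 markers, so every cell with fewer was gated as a progenitor. The reverse did not hold, since the steps from 5 on held 170 and 218 cells and the glia numbered 191 in all. The other cells there were gated as progenitors, having a larger share of that list detected. Glial markers thus did not fully separate these classes. From 5 markers on, the steps in part repeat the comparison of glia with progenitors. After thinning, 27.2% of glia (exact 95% interval 21.0 to 34.1%) and 6.26% of progenitors held a sox9b UMI, against 0.559% of photoreceptor cells.

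sox8b, the other SoxE gene, had 88 UMIs in all barcodes kept, 48 of them in retinal cells. No retinal class averaged above 2.21 CPM, the free RNA average being 0.882, so no retinal class level of sox8b could be read at this depth, and it was not tested. In 66 pigment cells, outside the retinal classes, sox8b was at 4.92 CPM from 3 UMIs.

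By class, cholinergic amacrine cells had 3 of the 8 genes tested higher and 4 lower (sox2, sox3 and sox4a, against sox11a, sox11b, sox6 and sox9b), where 7.44% of all genes tested were called higher and 14.7% lower (22.1% in either direction). The median log2 difference was -0.42 over the 8 genes and -0.10 over all genes. Of the 3 higher calls, sox3 and sox4a were lost without single libraries and sox2 was not. Of the 17 other sox rows, 4 could be tested and 2 were higher, both SoxD genes, sox13 at 3.43 ± 0.33 and sox5 at 3.14 ± 0.24. A sparse gene can pass the filter on low counts through this class alone, so such a count leans towards higher calls. Of 12 genes of neuronal maturation, 7 were higher and 3 lower, among them elavl3 (1.17), which encodes a neuronal RNA-binding protein, and sncb (0.94), a synuclein, against mllt11 (-1.38) and tubb2b (-1.27). The direct comparison with other amacrine cells called 2 of 6 sox genes higher and 3 lower, where 7.01% of all genes were called higher and 4.53% lower (11.5%).

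Glia had 3 genes higher (sox9b, sox2, sox3) and 4 lower (sox11a, sox4a, sox6, sox4b) of 8, where 8.96% of all genes tested were called higher and 6.11% lower (15.1%), with medians of -0.52 over the 8 genes and -0.05 over all genes. sox11a was lower with a log2 difference of -0.97 ± 0.17 (n = 4, edgeR adjusted p = 0.0019). For sox6 the glial mean of 31.8 CPM was exceeded among retinal classes by RGCs and stem cells only, and RGCs were among the cells compared. The sox4a call (-0.67 ± 0.14) was lost without eGFP-enriched replicate 3 (-0.59, adjusted p 0.063), and the sox4b call (-1.70 ± 0.45, n = 4, edgeR adjusted p = 0.023) without eGFP-enriched replicate 1, mCherry-enriched replicate 3 or eGFP-enriched replicate 3 (-1.36, -1.68 and -1.27), while it was -2.69 without mCherry-enriched replicate 1. Of the other sox rows, 9 of 10 tested were higher and 1 lower, with a median of 2.98. They included sox10 (3.86 ± 0.45), the SoxE factor of neural crest, sox19b (3.82 ± 0.40) and sox19a (3.79 ± 0.33), SoxB1 genes of fish, and sox9a (3.48 ± 0.36), the paralogue of sox9b. A sparse gene could pass the filter on low counts through glia alone. This count and median, and the count of the next list, thus lean towards higher calls. Of 12 glial and SoxE-linked genes, 5 of 10 tested were higher and 0 lower (5 and 0 by edgeR), with slc1a3b (6.33), a glutamate transporter, gfap (4.48), the glial filament protein, and glula (2.76), a glutamine synthetase. Against progenitors, 3 of 7 sox genes were higher (sox2 at 1.23 ± 0.16, sox9b, sox6) and 2 lower (sox11a at -1.40 ± 0.15, sox11b at -0.93 ± 0.15), where 14.9% of all genes were called higher and 15.3% lower (30.2%).

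Progenitors had 4 genes higher (sox3, sox9b, sox11b, sox11a) and 3 lower (sox6, sox4b, sox4a) of 8, where 19% of all genes tested were called higher and 20.1% lower (39.2%), with medians of 0.46 over the 8 genes and -0.00 over all genes. Of the other sox rows, 3 of 5 tested were lower and 0 higher by edgeR. Of the 12 maturation genes, 9 were lower and 1 higher. Of the list of eye field and POU3 factors, 3 of 9 were higher and 3 lower, with pou3f1 (1.37), a POU factor, and rx1 (1.11), a retinal homeobox factor, among the higher and the eye field genes six6a (-1.27) and six3a among the lower.

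Newborn RGCs had 2 genes higher (sox11b, sox11a) and 1 lower (sox4a, -1.21 ± 0.16, n = 4, edgeR adjusted p = 0.00077) of 8, where 3.61% of all genes tested were called higher and 3.02% lower (6.64%), with medians of -0.79 over the 8 genes and -0.08 over all genes. Maturation genes were called higher for 7 and lower for 2 of 12, with nhlh2 (2.28), a neuronal bHLH factor, mllt11 (2.14) and elavl3 (2.03) higher, and elavl4 (-1.82), an RNA-binding protein of later neurons, lower. Of the eye field and POU3 list, 3 of 9 were higher and 0 lower by edgeR, six3a (2.01), pou3f1 (1.60) and six6b (1.05). The comparison with RGCs called 2 of 7 sox genes higher and 3 lower, where 10.3% of all genes were called higher and 13.5% lower (23.8%), and sox4a was lower (-0.93 ± 0.20, edgeR adjusted p = 0.0083), lost without mCherry-enriched replicate 3 (-0.72, adjusted p 0.057). The comparison with progenitors called 2 of 6 higher and 3 lower, where 9.58% of all genes were called higher and 12.1% lower (21.7%). Its lower calls were lost without single libraries, sox3 (-1.95 ± 0.44) without mCherry-enriched replicate 3 (-1.99, adjusted p 0.085), sox2 (-0.98 ± 0.29) without any 1 of the 4 (-1.23 to -0.72), and sox9b (-1.55 ± 0.43) without eGFP-enriched replicate 1 (-1.61), mCherry-enriched replicate 3 (-1.40) or eGFP-enriched replicate 3 (-1.24), while it was -2.24 without mCherry-enriched replicate 1.

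Stem cells, gated by genes of the ciliary margin and of ribosome production, had 0 genes higher and 6 lower by edgeR (sox3, sox4a, sox11a, sox4b, sox11b, sox6) of 8, where 24.2% of all genes tested were called higher and 22.5% lower (46.7%) and 5419 had an unadjusted p under 0.05. The medians were -1.17 over the 8 genes and -0.05 over all genes. The sox4b call (-1.21 ± 0.26, n = 4, edgeR adjusted p = 0.0048) was lost without eGFP-enriched replicate 3 (-0.79, adjusted p 0.059). The summed level of the 9 genes in stem cells was 849 ± 181 CPM (SD, n = 4), against 2517 ± 481 in progenitors (SD, n = 6). Of the other sox rows, 3 of 8 tested were higher and 1 lower, sox10 (2.58), sox1b (2.45) and sox9a (1.41) against sox12 (-2.54), a SoxC gene. Of the glial and SoxE-linked genes, 5 of 8 tested were higher and 1 lower in stem cells too, with col2a1a (4.31), a cartilage collagen, slc1a3a (3.46), a glutamate transporter, and cx43 (3.43), a gap junction protein, against cahz (-3.13), a carbonic anhydrase. The filter on low counts could pass a sparse gene through stem cells alone, so the counts of both lists lean towards higher calls. Of the 12 maturation genes, 11 were lower and 0 higher by edgeR. Stem cells were the deepest class, with a median of 14247 UMIs, and 209 of the 292 had passed another gate as well. Against progenitors, 1 of 8 sox genes was higher (sox6, 2.28 ± 0.50) and 5 lower, where 21.8% of all genes were called higher and 18% lower (39.8%). The sox6 means were 39.8 CPM in stem cells (7.41 to 67.2) and 9.21 in progenitors, on either side of the 22.5 of the free RNA. With cells of several gates left out, the sox6 and sox9b calls of this comparison were lost (1.03 and -1.10).

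The remaining classes are given by their counts. Other amacrine cells had 2 of 8 higher and 5 lower, where 11% of all genes tested were called higher and 20.5% lower (31.5%). RGCs had 3 higher and 3 lower (20.4% and 21.6% of all genes, 42%), and bipolar cells had 2 higher and 3 lower (16.4% and 19%, 35.4%). Horizontal cells had 1 higher and 6 lower (6.65% and 7.27%, 13.9%), of which sox3 was lost without mCherry-enriched replicate 3 (-0.54) or eGFP-enriched replicate 3 (-0.34), and sox9b without eGFP-enriched replicate 3 (-1.19). In other amacrine cells sox3 was lower (-0.92 ± 0.27, n = 5, edgeR adjusted p = 0.023), lost without mCherry-enriched replicate 2 (-0.80), mCherry-enriched replicate 3 (-0.58) or eGFP-enriched replicate 3 (-0.89), and sox2 was lower (-1.80 ± 0.31, n = 5, edgeR adjusted p = 0.00083, and -2.41 without eGFP-enriched replicate 1). Photoreceptor cells had 0 higher and 8 lower by edgeR (15.8% and 18.3% of all genes, 34.1%), with a median of -2.04 over the 8 genes. Their sox4b call (-1.01 ± 0.34, n = 4, edgeR adjusted p = 0.046) was lost without mCherry-enriched replicate 3 (-0.95) or eGFP-enriched replicate 3 (-0.48), and sox11a (-2.58 ± 0.45) was -3.31 without eGFP-enriched replicate 1.

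The make-up of the sox UMIs is given as a description, and the ranges of many classes overlapped. SoxB1 genes took 68.7 ± 7.6% of the UMIs of the 9 genes in cholinergic cells (SD, n = 3), 48.9 ± 6.6% in glia (n = 4), 32.8 ± 4.0% in progenitors (n = 6) and 28.4 ± 4.7% in stem cells (n = 4), progenitors and stem cells overlapping. SoxC genes took 89.2 ± 6.6% in newborn RGCs (n = 4), 89.7 ± 5.3% in other amacrine cells (n = 5), 86.3% in photoreceptor, 85.4% in horizontal and 84.3% in bipolar cells, all overlapping, with 73.8% in RGCs, 43.0% in glia and 30.6% in cholinergic cells. SoxD took 18.8 ± 4.0% in RGCs (n = 6), and SoxE took 6.70 ± 1.34% in glia (n = 4) and 2.44% in progenitors. The summed level of the 9 genes averaged between 2332 and 3382 CPM in 7 classes, 1391 in horizontal cells, 862 in photoreceptor cells and 849 in stem cells. A thinned cell held UMIs of 2.35 ± 0.17 of the 9 genes in glia, against 0.941 in photoreceptor cells.

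**Figure D4:**
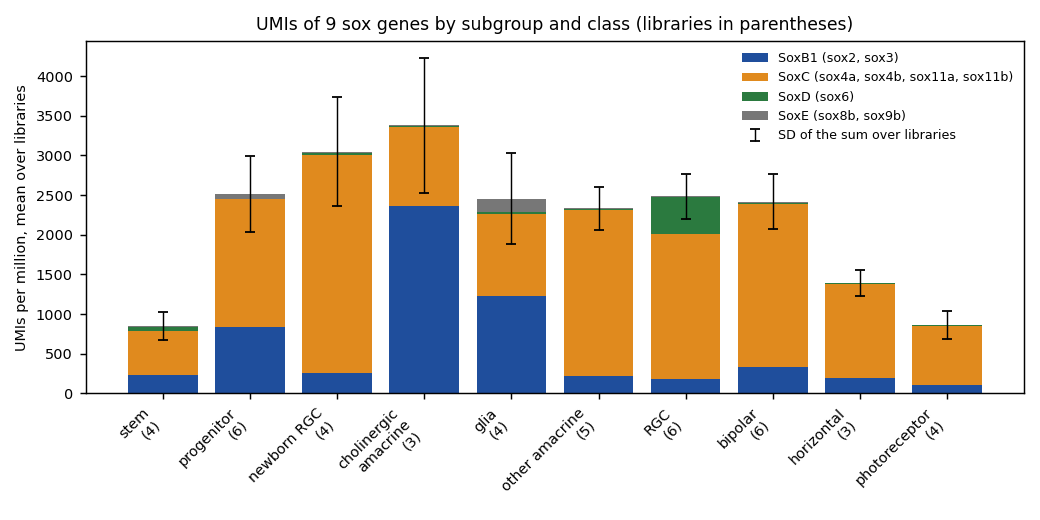
Summed level of the 9 genes (CPM, mean over libraries, error bars SD of the sum) in each retinal class, stacked by the subgroups SoxB1, SoxC, SoxD and SoxE. The bars of cholinergic amacrine cells and newborn RGCs reach 3382 and 3047 and are mostly SoxB1 and mostly SoxC, and that of stem cells reaches 849.

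Across the cell cycle, 2134 retinal cells with at least 4 of 10 division genes were set against 1363 with at most 1. Of the 8 sox genes tested, 3 were higher and 3 lower in dividing cells, where 25.6% of all genes tested were called higher and 22.9% lower (48.5%), with medians of -0.11 over the 8 genes and 0.02 over all genes. sox3 averaged 372 ± 61 CPM in dividing cells and 195 ± 76 in non-dividing cells (SD, n = 6 each), a log2 difference of 1.23 ± 0.16 (edgeR adjusted p = 0.00018). sox9b (1.17 ± 0.28, edgeR adjusted p = 0.0059) and sox11b (0.71 ± 0.13, edgeR adjusted p = 0.0014) were also higher. sox4a averaged 276 ± 84 in dividing cells and 853 ± 217 in non-dividing cells, at -1.40 ± 0.18 (edgeR adjusted p = 0.00019), and sox4b (-1.63 ± 0.26) and sox6 (-2.45 ± 0.27) were lower too. Of the SoxC genes, sox11b was higher and sox4a and sox4b lower in dividing cells. The progenitor gate itself asks for 3 of the division genes, so this comparison and that of progenitors share cells. The dividing and non-dividing cells were not matched for class, and a count of detected genes depends on depth per cell. The part of class and depth in these differences was not tested. sox11a (0.07) and sox2 (-0.29) did not pass the test, sox2 averaging 133 ± 16 in dividing cells and 191 ± 82 in non-dividing cells.

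The sort itself was then compared. In the barcodes kept, mCherry made up 22.7%, 9.09% and 8.82% of the reporter UMIs in mCherry-enriched replicates 1, 2 and 3, against 3.80%, 0% and 1.48% in eGFP-enriched replicates 1, 2 and 3, so the libraries followed their labels, though mCherry-enriched replicate 2 rested on 1 mCherry UMI and eGFP-enriched replicate 2 held 8 reporter UMIs in all. eGFP was found in 26.3%, 2.75% and 11.7% of barcodes in the mCherry-enriched libraries, against 15.4%, 4.71% and 17.5% in the eGFP-enriched libraries, and these ranges overlapped. Over all retinal cells, 0 of 8 sox genes were called by edgeR or by DESeq2, where 0.00917% of all genes were (1 of 10903 by edgeR, with 295 at an unadjusted p under 0.05, and 1 higher and 16 lower by DESeq2).

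The gene nearest to a difference was sox11a, at 620, 610 and 622 CPM in mCherry-enriched replicates 1, 2 and 3, against 534, 452 and 449 in eGFP-enriched replicates 1, 2 and 3. The groups did not overlap, with a log2 difference of 0.38 ± 0.13 (95% interval 0.13 to 0.63, normal, too narrow for few libraries). It did not pass the test (edgeR adjusted p = 1.00), and an exact permutation test of these libraries gave p = 0.1, the smallest possible. sox2 averaged 162 ± 24 in mCherry-enriched and 169 ± 53 in eGFP-enriched libraries, and sox3 averaged 301 ± 123 in mCherry-enriched and 301 ± 53 in eGFP-enriched libraries (SD, n = 3 each). Within single classes, 0 of 8 genes were called in stem cells and in progenitors, 0 of 5 in newborn RGCs and 0 of 7 in glia, by edgeR and by DESeq2, where 0% of all genes were called by edgeR (390, 74, 51 and 219 genes had an unadjusted p under 0.05). Whether a class difference depended on the sort was tested for 8 genes in 8 classes, and 0 of 64 passed by edgeR, the lowest adjusted p being 0.48.

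In single cells thinned to equal depth, 28 pairs of the sox genes other than sox8b were examined by the share of cells with both genes, set in each library against the product of the single shares. The share was over the product in 6 of 6 libraries for 1 pair and under it in 6 of 6 for 4. These pairs share their cells and genes, so the counts are a description. The shares and products pool all retinal classes, between which the levels of these genes differed. Genes raised in the same class can exceed such a product without going together within a class. Genes raised in different classes can likewise fall under it. The part of class in the pooled results here and in the next paragraph was not tested. sox3 and sox9b, over in all 6, were found together in 79 of 4349 retinal cells, a mean of 2.37% of cells against 0.976% from the product. sox2 and sox9b were found together in 47 cells (1.13%, against 0.459%), over the product in 5 of 6 libraries, eGFP-enriched replicate 2 having 0 such cells among 61. sox4b and sox6 were found together in 25 cells, also over the product in 5 of 6, with eGFP-enriched replicate 1 at 0.193% against 0.211%.

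Under the product in all 6 libraries, sox2 was found with sox4a in 132 cells (3.55%, against 5.17%) and with sox11a in 168 cells (3.75%, against 5.16%). The other pairs of that kind, sox9b with sox4b and with sox6, rested on 1 and 5 cells. With cells of several gates left out, sox3 and sox9b were over the product in 4 of the 5 libraries that held both genes and sox2 and sox9b in 5 of 5, while sox2 with sox4a and with sox11a stayed under it in 6 of 6. Unthinned, 10 pairs lay over the product in every library and 0 under it, depth per cell differing between classes. Of the pairs above, sox2 with sox11a was then over it in 5 of 6 libraries (21.0%, against 20.3%). sox2 with sox4a was under it in 5 of 6 (18.3%, against 20.6%). The log2 odds drawn per library have 0.5 added to each count, which sets their sign where few cells hold both genes, so that 3 pairs lay above 0 in every library.

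Within classes, the pairs named here are examples from all pairs and classes, and how many agreed in every library was not counted. In few libraries, all can fall on the same side by chance. In cholinergic cells sox2 and sox4a were found together in 19 of 104 cells (21.6%, against 28.4% from the product), under the product in 3 of 3 libraries (mean log2 odds -2.02). In progenitors sox2 and sox9b were found together in 15 cells (1.66%, against 0.694%), over the product in the 5 libraries that held both genes, and sox2 and sox4a in 21 cells (1.63%, against 3.26%), under it in 6 of 6. In glia sox3 and sox11b were found together in 48 of 184 cells (27.4%, against 22.9%), over the product in 4 of 4, and sox2 and sox11a in 20 (9.97%, against 12.6%), under it in 4 of 4. In newborn RGCs 74 of 113 cells held both sox11a and sox11b, whose mean single shares were 76.7% and 88.2%. With single shares this large, the count alone does not show that these genes go together. Cells of a class differ in how many markers they carry, as the marker steps above show, and the part of that in these shares was not tested.

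**Figure D5:**
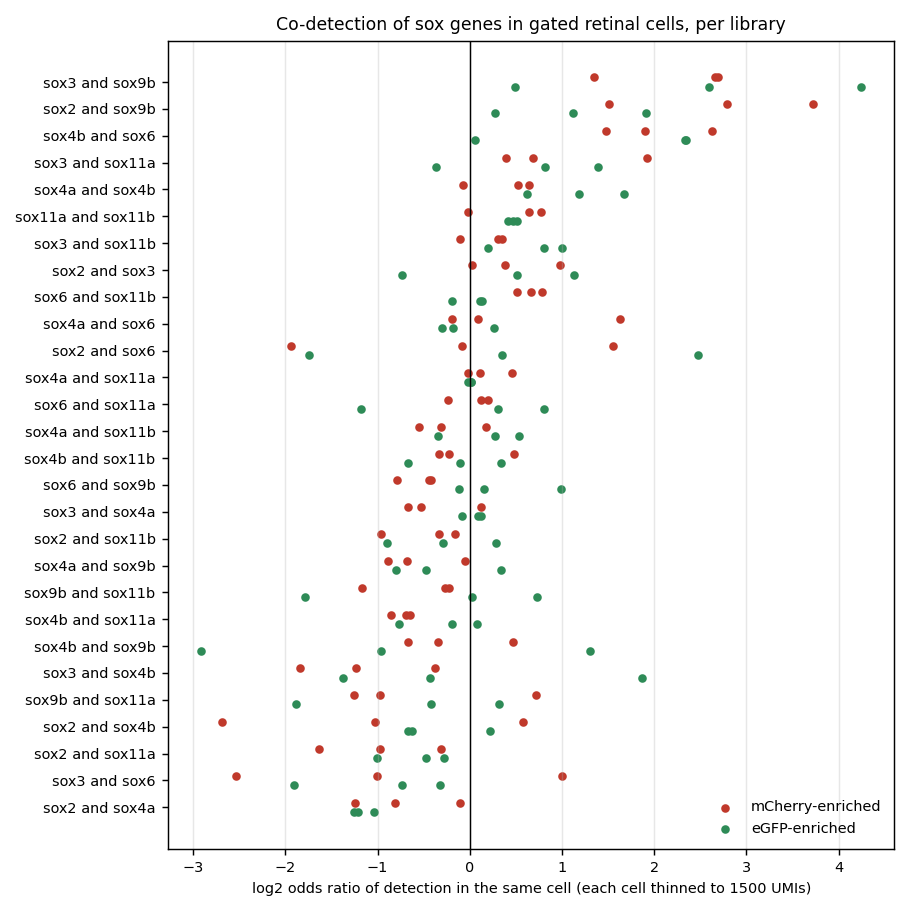
Log2 odds of finding both genes of a pair in a thinned retinal cell, 1 point per library, mCherry-enriched above eGFP-enriched within each pair, with 0.5 added to each count and a line at 0. Retinal classes are pooled, so differences in level between classes can move these odds. All 6 points lie above 0 for sox3 with sox9b (mean 2.34) and below 0 for sox2 with sox4a and with sox11a (means -0.95 and -0.78). Those of sox2 with sox9b and of sox4b with sox6 lie above 0 too, but 1 of the 6 in each is there only through the added 0.5.

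Other genes were ranked by the Pearson correlation of their log2 level with that of each sox gene over 45 sums of a library and class from 10 classes, among 4736 genes with a mean of at least 20 CPM. The sums share libraries and depth, so r is a description. sox2 was most like rhocb (r = 0.813), itself a marker of the cholinergic gate, sox13 (0.811), a SoxD gene, and nhsl2 (0.807). sox3 was most like olig2 (0.782), a bHLH factor of neural progenitors, and sox9b most like her12 (0.908), a Notch target that is in the glial gate, and lfng (0.889), which modifies Notch. sox6 was most like grin2ab (0.849), an NMDA receptor subunit, isl2b (0.849), a factor that is in the RGC gate, and snap25a (0.842), of vesicle fusion. sox4b was most like gphnb (0.866), a gephyrin, with pcloa (0.823), a piccolo, among the next. sox11b was most like pou3f1 (0.813) and ebf2 (0.786), which is in the newborn RGC gate. The best r for sox4a was with ppdpfb (0.842) and for sox11a with BX284638.2 (0.783).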

How the data were processed

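Eyes of reporter embryos at 48 hpf were sorted and profiled by 10x 3′ single-cell RNA-seq in 6 libraries. The files deposited by the authors hold unnormalized UMI counts for each gene in each barcode, made by Cell Ranger (6.1.2 in the methods, 4 in the matrix header) on GRCz11 with the eGFP and mCherry sequences added, and barcodes were not filtered. Their own clustering, in Seurat 4, was not used here. Total UMIs per library were 14307132 to 86803928, so low genes are less precise in the shallow libraries.

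Barcodes with at least 1000 genes and at most 10% mitochondrial UMIs were kept and assigned to 10 retinal classes and 7 other tissues by the number of marker genes detected, no sox gene being a marker. A progenitor also needed 3 of 10 division genes, and a cholinergic cell 2 amacrine markers. Ties were left out. No doublet caller was run, and leaving out cells of several gates served as an alternative. UMIs were summed per library and class where at least 10 cells were present.

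Sums were tested with edgeR 4.0.16 in R 4.3.3 (quasi-likelihood, TMM, filterByExpr, library as covariate except between sorts, Benjamini-Hochberg over all genes tested, threshold 0.05), which for sox4a read the main row only. DESeq2 1.42.0 was an alternative, as were other filters, gates, depths and sets of libraries. Python 3.11.15 with numpy 2.4.6, scipy 1.17.1, pandas 2.3.3 and matplotlib 3.10.9 gave levels, exact sign-flip tests, exact binomial intervals and figures. The edgeR fits of progenitors, cholinergic cells, glia and the sort, and the ranking of like genes, were tested on simulated data. The other statistics were not. Named genes were the 9 genes, up to 4 called genes with the largest change per class of 4 gene lists, and the 3 genes most like each sox gene by r of log2(CPM + 10). Genes, lists and markers were chosen with earlier results of these data known, and the direct comparisons of classes, the marker steps and the omission of sox8b from the pairs were added after the data had been seen.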

Additional observations from a re-analysis of the deposited data

Results flagged for a closer look

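Of 71 groups of 4 to 6 libraries looked at, 11 had 1 library far from the others, where chance gives about 1 in 20. For 3 of them, all with sox8b, the other libraries were at 0, and that rate does not apply. Every case rests on the gap of that library to its neighbour within the range of the group.

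Several were in small or sparse sums. sox3 in progenitors was at 1174 CPM in eGFP-enriched replicate 2 (10 cells, 71 UMIs), against 504 to 703 in the other libraries, and sox9b in the same cells was at 115.7 CPM (7 UMIs), against 39.0 to 58.6. sox11b in RGCs was at 705.3 CPM in eGFP-enriched replicate 2 (13 cells, 36 UMIs), against 399 to 513 in the others. sox11b in stem cells was at 292.8 CPM in mCherry-enriched replicate 1 (10 cells), against 174 to 187. sox8b stood apart through few UMIs. It was at 8.82 CPM in newborn RGCs (2 UMIs) and 1.371 CPM in RGCs (1 UMI) of mCherry-enriched replicate 1. It was at 1.156 CPM in bipolar cells of eGFP-enriched replicate 1 (7 UMIs) and 1.35 CPM in photoreceptor cells of eGFP-enriched replicate 3 (2 UMIs).

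The other cases had more UMIs. sox3 in photoreceptor cells was at 154.6 CPM in eGFP-enriched replicate 1 (93 cells), against 36.4 to 44.2 in the others. sox11a in bipolar cells was at 1272 CPM in mCherry-enriched replicate 3 (473 UMIs), against 631 to 848. sox11b in glia was at 536.2 CPM in mCherry-enriched replicate 3, against 323 to 358.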

How the results depend on the processing

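Of the calls of single sox genes, 47 of 63 by class, 17 of 26 between classes and 6 of 6 by division held under every alternative run. Leaving out a library makes small classes smaller still, and there the edgeR p rests on a spread shared over genes. A call that held in such a fit shows little about how far the libraries differ for that gene. With cells of several gates left out, sox2 in progenitors was -0.45 against 0.16, and sox11b in RGCs was -0.42 against 0.12, neither being called with those cells kept. Of the class results not called at first, 2 changed sign and were called under an alternative. sox4a in cholinergic cells, called at 0.33, was -0.41 in thinned cells and -0.20 with 1 marker more per gate. The sox11b share of bipolar cells differed by -26.0 points in thinned cells (5 libraries, exact permutation p = 0.0625), against -20.7, and by -22.2 to -19.1 with single libraries left out, when 5 libraries allow no exact p under 0.0625. Unthinned, 10 pairs of genes lay above 0 in every library, against 3, and with no 0.5 added 1 pair exceeded the product of the single shares in every library, a comparison added after seeing the data. The cause of these changes was not tested, except that the 0.5 itself accounts for the last.

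DESeq2's scaling moved the median of all genes by more than 0.1 only in progenitors (-0.15), where 36.4% of its calls were higher, against 48.6% of edgeR's. That share also moved in horizontal cells (58.5% with DESeq2, 47.8% with edgeR) and in cholinergic against other amacrine cells (74.7% with DESeq2, 60.8% with edgeR).

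With the replicate number as a block, edgeR called 0 sox genes between sorts, in all retinal cells or within a class. The deviations of same-numbered libraries correlated at 0.17, 0.102 and 0.0841 over 10903 genes. Every library correlated best with its own number, but not every value passed 0.1. Each round of sorting gave both sorts, but the labels do not say that the numbers are rounds, so they were not taken as pairs. The block called 2 genes higher and 31 lower in all retinal cells, against 0 higher and 1 lower by edgeR without it.

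Depth limits sox8b, sox4b and sox9b most, and classes of 3 libraries rest on a shared estimate of spread.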

Other observations

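Barcodes gated as other tissues give values of the same genes with all libraries summed and no comparison. sox6 was at 138 CPM in 201 mesenchyme and cartilage cells (332 UMIs). Of these, 129 UMIs came from 10 cells of mCherry-enriched replicate 2, at 1090 CPM, and the level was 89.0 CPM without that library. It was at 82.2 CPM in 97 epithelial cells (141 UMIs). Among these, 85 cells and 123 UMIs came from eGFP-enriched replicate 3, and the level was 60.9 CPM without that library. In 9 red blood cells sox6 was at 66.2 CPM (19 UMIs, and 41.8 CPM without mCherry-enriched replicate 1). The mesenchyme and cartilage cells had sox11a at 517 CPM and sox2 at 3.75 CPM. In 66 pigment cells sox9b was at 75.4 CPM (46 UMIs) and sox11a at 224 CPM.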
